A study of Mus musculus with 4 samples.

Results

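A set of 10 G protein-coupled receptor genes, most of them orphans or receptors for lipids, was described in mouse regulatory T (Treg) cells after loss of Foxp3. Treg cells are CD4+ T cells that restrain immune responses, and Foxp3 is their defining transcription factor. The members were chosen by platform gene symbol, as every probe set annotated to exactly Gpr83, Gpr18, Gpr171, Gpr183, Gpr65, Gpr132, Gpr34, Gpr15, Gpr146 or Ltb4r1, which gave 16 of the 45101 probe sets on the array for 10 of 18193 genes. The Foxp3-deleted group (Foxp3delta in the labels, 2 arrays) held cells with a loxP-flanked Foxp3 locus that Cre can excise, and the wild-type group (Foxp3+ in the labels, 2 arrays) held cells whose Foxp3 locus was wild type. Cells of both groups had received Cre through the construct HR-MMPCreGFP, carried a YFP reporter that marks exposure to Cre, were adoptively transferred, and were taken as CD4+ YFP+ Ly5.2+ T cells after 6 weeks. The labels give no age, sex, strain or recipient, and do not say whether the arrays of a group came from separate animals or preparations, so every p-value reflects the spread among these arrays alone, part or all of which could be technical.

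These receptors span the plasma membrane as a bundle of helices and pass a signal to a heterotrimeric G protein inside the cell. Several of the members read lipids: GPR183 is the receptor for an oxysterol that positions lymphocytes in lymphoid organs, BLT1 (the product of Ltb4r1) binds leukotriene B4, and GPR34 binds lysophosphatidylserine. GPR65 and GPR132 belong to a small family described as sensing extracellular protons, and GPR65 raises cyclic AMP through the stimulatory G protein. GPR83 is known in the mouse as a receptor gene expressed far more in Treg cells than in conventional CD4+ T cells.

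Promoter sequences were available for 8 of the 10 genes, in 10 windows of 300 bases that run from 250 bases before a transcription start to 50 bases after it (RefSeq, build GRCm38.p6). Shown are the window of Gpr83, which had the most negative differences, the window of Gpr18, which read higher, and the window of Gpr146 that holds the longest forkhead motif searched. Capitals mark the forkhead core TAAACA, read on both strands.
Gpr83, chr9:14859960-14860259, plus strand: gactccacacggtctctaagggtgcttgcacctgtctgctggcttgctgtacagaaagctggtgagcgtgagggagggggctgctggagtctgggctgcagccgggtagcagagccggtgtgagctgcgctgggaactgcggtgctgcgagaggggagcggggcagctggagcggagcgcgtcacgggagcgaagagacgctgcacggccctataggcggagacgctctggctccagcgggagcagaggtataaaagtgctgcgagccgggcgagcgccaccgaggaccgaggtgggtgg
Gpr18, chr14:121915839-121916138, minus strand: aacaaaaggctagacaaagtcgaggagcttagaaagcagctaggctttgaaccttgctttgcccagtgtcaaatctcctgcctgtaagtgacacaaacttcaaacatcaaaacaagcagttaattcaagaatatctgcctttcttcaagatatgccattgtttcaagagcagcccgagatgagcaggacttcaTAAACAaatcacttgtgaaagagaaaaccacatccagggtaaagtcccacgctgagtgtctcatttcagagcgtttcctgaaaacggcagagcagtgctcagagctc
Gpr146, chr5:139389654-139389953, plus strand: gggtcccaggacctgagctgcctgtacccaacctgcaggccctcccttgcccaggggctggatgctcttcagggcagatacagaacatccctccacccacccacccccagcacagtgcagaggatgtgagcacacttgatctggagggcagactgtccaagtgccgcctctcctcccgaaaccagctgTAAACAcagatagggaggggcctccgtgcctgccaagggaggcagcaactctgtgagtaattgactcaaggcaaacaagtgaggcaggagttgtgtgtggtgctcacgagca

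The core TAAACA occurred 57 bases before the start in Gpr18 and 62 bases before it in this Gpr146 window, and once in the window of Gpr183. It was found in 3 of the 10 member windows, against 13.4% of all 32851 promoter windows. The longer form GTAAACA, which contains that core, occurred in the Gpr146 window alone among the members, against 3.65% of all windows. The letters of either form are not in the Gpr83 window. The RUNX motif TGTGGT lay in 5 member windows (16.8% of all windows), the KLF motif CACCC in 6 (57.5%) and the ETS motif CCGGAAG in 0 (8.86%). These matches describe the letters only and show no binding.

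The deposited values are GCRMA intensities, which are background-corrected and normalized between arrays, and log2 of these values was compared. Between 35.8% and 36.1% of probe sets per array reached a log2 intensity of 4 (an intensity of 16), and the 16281 probe sets whose mean over the 4 arrays reached it were tested with limma. Foxp3 itself read 437.8 and 429.8 in deleted cells, compared with 2693.5 and 2404.4 in wild-type cells, on a probe set whose place relative to the excised part was not given. CD4 T cell markers (Cd3d, Cd3e, Cd3g, Cd4 and Cd5) were above log2 4 on every array, and Cd8a and Cd8b1 were below it on every array. Cd4 itself was higher in deleted cells without overlap, at log2 9.03 and 9.63 against 8.38 and 7.15 in wild-type cells. Cd3d was also higher without overlap, while Cd3e, Cd3g and Cd5 overlapped between the groups. No single probe set had an adjusted p under 0.05 (0.0% called, lowest adjusted p = 0.115), while 1507 (9.26%) had an unadjusted p under 0.05, so the differences below are given as values and as non-overlapping groups. The 2 arrays per group limit the precision, and fewer cells of a type cannot be told apart from less RNA per cell.

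Of the 16 member probe sets 12 were tested, for 9 genes, and each had a mean of at least log2 4 in both groups. A difference of at least 2-fold without overlap of the groups was found for 4 of the 12, against 11.2% of all tested probe sets, and these 4 were also the members with an unadjusted p under 0.05. Lower in deleted cells were the 2 Gpr83 probe sets (4.58% of all tested probe sets were lower by this rule), and higher were the single probe sets of Gpr18 and Gpr171 (6.66%). The other 8, for Gpr183, Gpr65, Gpr34, Gpr15, Gpr146 and Ltb4r1, had overlapping groups. The median difference over the 12 was 0.014 on the log2 scale, beside 0.0058 over all tested probe sets.

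**Figure D1:**
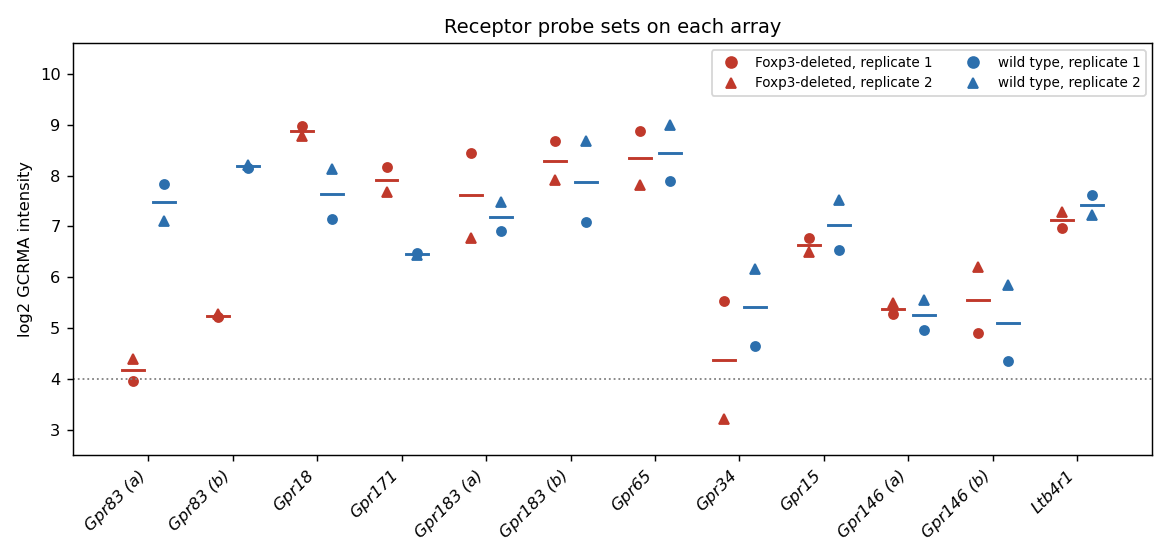
Log2 GCRMA intensity of the 12 tested receptor probe sets on each of the 4 arrays, with Foxp3-deleted arrays in red on the left and wild-type arrays in blue on the right of each pair. Circles are replicate 1, triangles replicate 2, bars group means, (a) and (b) the probe sets of a gene in the order of the text, and the dotted line log2 4. Gpr83 is lower and Gpr18 and Gpr171 are higher in both deleted arrays, while the other probe sets overlap between groups.

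Gpr83 had the lowest deleted-to-wild-type ratio among the members on both of its probe sets. The first (1423415_at) read 15.5 and 20.9 in deleted cells, compared with 227.7 and 138.3 in wild-type cells. The second (1439569_at) read 37.2 and 38.8 in deleted cells, compared with 283.5 and 297.6 in wild-type cells. Both deleted arrays lay far below both wild-type arrays on each probe set, and the second separated the groups with almost no spread within them (38.0 ± 1.09 against 290.6 ± 10.04, mean intensity ± SD, n = 2 each).

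On the log2 scale the difference of Gpr83 was -3.30 (SE 0.43, 95% interval -4.40 to -2.21) on the first probe set and -2.94 (SE 0.34, -3.81 to -2.06) on the second. Deleted cells thus had 10.1% and 13.1% of the wild-type signal, beside 17.0% for Foxp3 itself. Gpr83 did not pass the threshold in limma on either probe set, with adjusted p = 0.149 and 0.129. Only 28 and 41 of the 16281 tested probe sets had a more negative difference, and 61 and 43 had a smaller p. On the first probe set the deleted arrays lay at the edge of the dim range (log2 3.95 and 4.38), where GCRMA pulls values towards a floor. With values below 4 raised to 4 the difference on that probe set was -3.28. On the second probe set the deleted arrays lay at 5.22 and 5.28. Leaving out any single array kept the difference between -3.66 and -2.94 on the first probe set and between -2.97 and -2.90 on the second.

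Nearest in pattern to the first Gpr83 probe set were Myb (distance 0.29), Ncmap (0.44) and Gzmb (0.48). The distance was Euclidean, between centred log2 values over the 4 arrays, and neighbours of the second probe set were not sought. Myb encodes a transcription factor of blood progenitors and lymphocytes, and Gzmb a cytotoxic granule protease. Myb had log2 intensities of 4.23 and 4.43 in deleted cells and 7.76 and 7.36 in wild-type cells. With 4 arrays this distance is a description of these samples.

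GPR171 and GPR18 are orphan-class receptors expressed in lymphocytes, and for each a candidate ligand has been proposed. Gpr171 (1438439_at) read 286.5 and 204.1 in deleted cells, compared with 89.3 and 86.2 in wild-type cells. Gpr18 (1439141_at) read 501.6 and 441.1 in deleted cells, compared with 142.4 and 281.6 in wild-type cells. Every deleted array was above every wild-type array for both genes, though the wild-type arrays of Gpr18 lay apart from each other by 1.98-fold. Some markers of other cell types were also higher in both deleted arrays. Of 2 measured gamma-delta T cell markers, Cd163l1 was at log2 6.15 and 6.65 in deleted cells and 3.66 and 3.93 in wild-type cells, and Sox13 was below 4 on every array. The summed intensities of that list were 77.9 and 107.4 in deleted cells and 19.4 and 21.9 in wild-type cells. This sum follows Cd163l1 alone, since the intensity of Sox13 lay between 6.68 and 6.84 on every array. Of 4 measured dendritic cell markers, H2-Ab1 was at 7.55 and 7.11 in deleted cells and 6.05 and 5.69 in wild-type cells. H2-Aa, the brightest of them, overlapped between the groups, at 9.97 and 9.05 in deleted cells and 9.32 and 8.39 in wild-type cells. Itgax and Flt3 were below 4 on every array. The dendritic list summed to 1198 and 676.9 in deleted cells and 714.1 and 396.02 in wild-type cells, which overlap. The part of these markers in the Gpr171 and Gpr18 values was not tested.

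The difference was 1.46 for Gpr171 (SE 0.37, 95% interval 0.51 to 2.42, 2.76-fold) and 1.23 for Gpr18 (SE 0.45, 0.08 to 2.39, 2.35-fold). Neither passed in limma, with adjusted p = 0.359 for Gpr171 and 0.507 for Gpr18. Gpr171 stayed between 1.22 and 1.71 when single arrays were left out. Gpr18 differed by 0.74 without wild-type replicate 1, and by 1.72 without wild-type replicate 2. Nearest in pattern to Gpr171 were Gpbp1 (distance 0.04), Atp2b1 (0.18), which encodes a plasma membrane calcium pump, and Als2cl (0.18).

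Gpr183 lies next to Gpr18 on chromosome 14, with 0 protein-coding genes starting between them in the RefSeq annotation. Its first probe set (1437356_at) read 350.4 and 109.3 in deleted cells, compared with 119.9 and 178.3 in wild-type cells. Its second (1457691_at) read 412.3 and 239.7 in deleted cells, compared with 135.5 and 408.9 in wild-type cells. On the first probe set deleted replicate 1 stood above the other arrays, and on the second deleted replicate 1 and wild-type replicate 2 stood together above the others.

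The difference of Gpr183 was 0.42 on both probe sets, with 95% intervals of -1.26 to 2.11 and -1.25 to 2.08 and adjusted p = 0.882 in limma for each. On the ratio scale the intervals reached 4.303-fold and 4.24-fold higher in deleted cells. The sign turned on the first probe set without deleted replicate 1 (-0.42) and on the second without wild-type replicate 1 (-0.38). Myeloid cells also express Gpr183, and the summed myeloid marker intensity was highest on deleted replicate 1. That sum was lowest on wild-type replicate 2, although this array read 408.9 on the second Gpr183 probe set, close to deleted replicate 1 (412.3). Of 7 measured myeloid markers 5 were above log2 4 on deleted replicate 1 and 4 on each other array, with summed intensities of 1955 and 647.6 in deleted cells and 659.5 and 541.3 in wild-type cells. Csf1r, the brightest of them, gave 923.5 and 486.8 of the deleted sums and 533.2 and 314.2 of the wild-type sums, with overlap. Lyz2 (lysozyme) was at log2 9.69 on deleted replicate 1 and 6.30 on deleted replicate 2, against 5.65 and 7.24 in wild-type cells, while Itgam and Cd14 were below 4 on all arrays. Mpeg1 was at 7.25 and 5.42 in deleted cells and 5.14 and 5.27 in wild-type cells, without overlap. Cd68 was above 4 on deleted replicate 1 alone (4.34), and Adgre1 lay between 4.32 and 4.44 on all arrays. The part of these markers in the Gpr183 values was not tested. Of 4 measured B cell markers, another cell type that uses Gpr183, Cd79a and Pax5 were below log2 4 on every array, and Ms4a1 was above it on wild-type replicate 1 alone (4.12). Cd79b was at log2 4.04 and 4.94 in deleted cells and 6.58 and 6.49 in wild-type cells, without overlap. The summed B cell marker intensities were 39.2 and 52.8 in deleted cells and 123.7 and 114.0 in wild-type cells. This difference mainly follows Cd79b, whose intensity was 16.4 and 30.7 in deleted cells and 95.5 and 89.7 in wild-type cells. The part of the B cell markers was likewise not tested.

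The proton-sensing receptor gene Gpr65 (1449175_at) read 467.8 and 224.7 in deleted cells, compared with 236.4 and 509.9 in wild-type cells. One array of each group was high and the other low, by 2.08-fold within the deleted group and 2.16-fold within the wild-type group. The groups differed by -0.10 (SE 0.58, 95% interval -1.59 to 1.39, adjusted p = 0.977 in limma), or 0.333 to 2.62 as a ratio. The sign turned when either replicate 2 was left out (0.43 without the deleted one, 0.46 without the wild-type one).

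Gpr132, the other proton-sensing member, was dim on both probe sets. One read between 4.46 and 4.63 on the 4 arrays, and the other 7.73 and 11.6 in deleted cells and 7.30 and 7.42 in wild-type cells. All of these values lay below an intensity of 16, so no level or difference of Gpr132 was tested.

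Gpr34 (1422542_at), the lysophosphatidylserine receptor gene, read 46.6 and 9.24 in deleted cells, compared with 25.1 and 71.7 in wild-type cells. The deleted arrays were 5.05-fold apart, a gap exceeded by 0.63% of tested probe sets, and the wild-type arrays were 2.86-fold apart. The difference of -1.03 (SE 0.93, 95% interval -3.43 to 1.37, adjusted p = 0.776 in limma) had the widest interval of all members, and it was 0.14 without deleted replicate 2. Gpr34 is known from myeloid and mast cells as well as lymphocytes. Within both groups Gpr34 and the myeloid marker Lyz2 were higher on the same array. Csf1r, the brightest myeloid marker, and the summed myeloid intensity were instead lower on wild-type replicate 2 than on wild-type replicate 1. The part of these markers in the Gpr34 values was not tested. Of 4 measured mast cell and basophil markers none reached log2 4 on any array.

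Gpr15, which encodes a homing receptor that directs T cells to the large intestine, read 109.9 and 90.5 in deleted cells, compared with 92.7 and 184.0 in wild-type cells on its single probe set (1431296_at). The deleted arrays and wild-type replicate 1 lay close together, and wild-type replicate 2 was above them. The difference was -0.39 (SE 0.47, 95% interval -1.60 to 0.82, adjusted p = 0.839 in limma), and 0.11 without wild-type replicate 2.

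Ltb4r1 (1420407_at) read 125.9 and 156.1 in deleted cells, compared with 195.8 and 150.3 in wild-type cells. Its arrays differed little within a group, by 1.24-fold in deleted and 1.30-fold in wild-type cells, and the groups overlapped. The 95% interval around its difference of -0.29 ran from -1.25 to 0.66.

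GPR146 is an orphan receptor studied in the liver for its part in blood cholesterol. Of its 4 probe sets 2 were tested. The first (1423632_at) read 38.7 and 44.8 in deleted cells, compared with 31.0 and 46.8 in wild-type cells, a difference of 0.13 (SE 0.38, 95% interval -0.84 to 1.097). The second (1454685_at) read 30.0 and 73.6 in deleted cells, compared with 20.6 and 57.4 in wild-type cells, a difference of 0.45 (SE 0.70, -1.35 to 2.25). On both probe sets replicate 2 of each group read above replicate 1, and the groups overlapped, with adjusted p = 0.946 and 0.882 in limma. The sign turned without wild-type replicate 1 on both (-0.17 and -0.29), and without deleted replicate 2 on the second (-0.20). The remaining Gpr146 probe sets lay between 4.38 and 7.07 on all arrays.

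**Figure D2:**
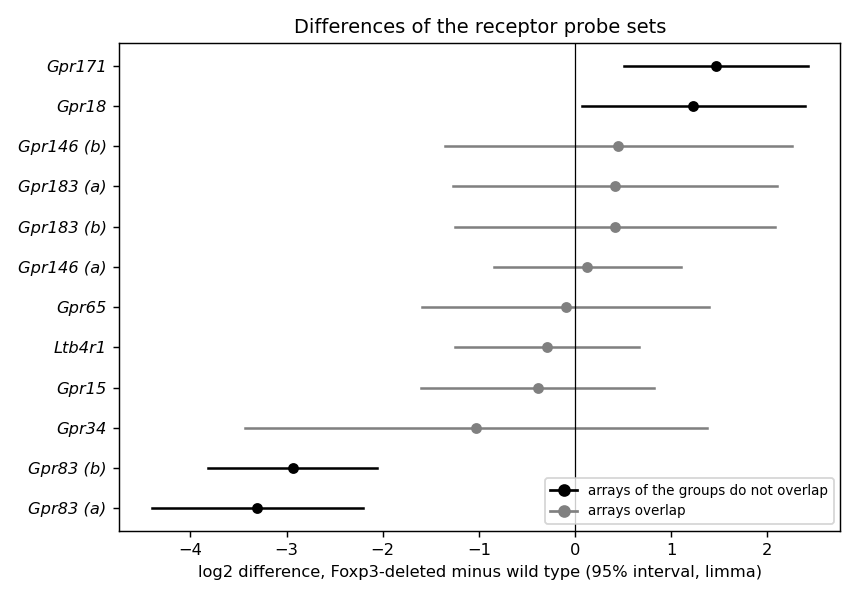
Log2 difference, Foxp3-deleted minus wild type, of each tested receptor probe set (points) with its 95% interval from limma (lines), in order of size. Black marks probe sets whose groups do not overlap, which are both Gpr83 probe sets, at -3.30 and -2.94, and Gpr171 and Gpr18, at 1.46 and 1.23, and grey marks the 8 whose groups overlap.

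The members varied in how closely the arrays of one group repeated each other. The median gap between arrays over all tested probe sets was 0.43 in deleted cells and 0.45 in wild-type cells on the log2 scale. Gpr34, Gpr65 and the second Gpr146 probe set had gaps over 2-fold within both groups, which held for 3 of the 12 member probe sets against 4.53% of all tested probe sets. On 6 member probe sets, those of Gpr18, Gpr183, Gpr65, Gpr34 and Gpr15, deleted replicate 1 read above deleted replicate 2 and wild-type replicate 2 above wild-type replicate 1, an order that 31.9% of all tested probe sets had.

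**Figure D3:**
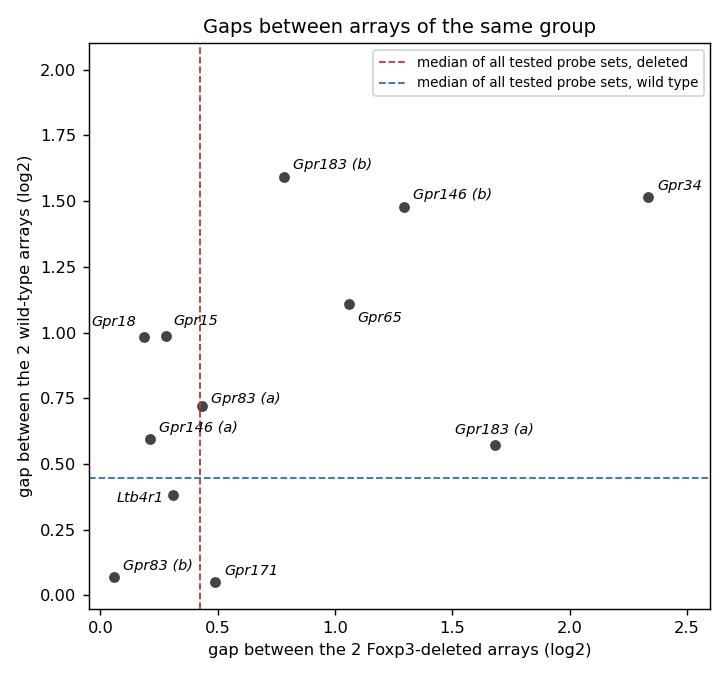
Gap between the 2 Foxp3-deleted arrays (horizontal axis) and between the 2 wild-type arrays (vertical axis) of each tested receptor probe set, both on the log2 scale, with dashed lines at the medians of all tested probe sets (0.43 and 0.45). The second Gpr83 probe set lies near the origin, and Gpr34 lies farthest out, at gaps of 2.34 and 1.51.

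Genes that make the ligands of the members were mostly dim in these cells. The oxysterol enzymes Ch25h, Cyp7b1 and Hsd3b7, which make or degrade the GPR183 ligand, were below log2 4 on all 4 arrays (2.12 to 3.96), as were Alox5 (3.40 to 3.45), the lipoxygenase of leukotriene synthesis, and Pcsk1n (2.21 to 2.29), the precursor of peptides proposed as ligands of GPR83 and GPR171. Lta4h, the hydrolase that completes leukotriene B4, was bright and differed by -0.07 (adjusted p = 0.963 in limma; -0.97 on its other probe set). Alox5ap, which presents the substrate to that lipoxygenase, read log2 6.98 and 3.53 in deleted cells, compared with 4.09 and 4.94 in wild-type cells, with the highest value on the array that was also highest in myeloid markers. The part of those markers was not tested.

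Receptor genes for related lipids differed in both directions. For each of the following lists 1 probe set per gene was used. Of all 8629 genes tested so, 4152 had a higher mean in deleted cells and 4477 a lower one. Over these genes 5.57% were 2-fold higher without overlap and 4.93% 2-fold lower, 0.0% had an adjusted p under 0.05 (limma), and the median difference was -0.018. Of 7 tested lysophospholipid receptor genes 5 had a higher mean in deleted cells, 2 of these at least 2-fold without overlap, and 1 was 2-fold lower (median 0.22). Lpar6, a lysophosphatidic acid receptor gene, was higher by 1.14 (SE 0.33), and S1pr4, a sphingosine phosphate receptor gene of lymphocytes, by 0.94 (SE 0.33). S1pr1 read log2 5.30 and 4.81 in deleted cells, compared with 3.09 and 3.26 in wild-type cells, so it passed the filter through the deleted group alone, and its difference of 1.89 was 1.06 with values below 4 raised. The lysophosphatidylserine receptor gene Gpr174, related to Gpr34 by its ligand, was lower, with log2 intensities of 9.32 and 8.36 in deleted cells and 10.12 and 10.46 in wild-type cells, a difference of -1.45 (SE 0.42, adjusted p = 0.425 in limma) that was -1.01 on its other probe set.

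Of the cysteinyl leukotriene receptor genes Cysltr1 was tested, and it read log2 5.99 and 4.55 in deleted cells, compared with 2.05 and 3.78 in wild-type cells, so it passed the filter through the deleted group alone. Its difference of 2.36 (adjusted p = 0.461 in limma) was 1.27 with values below 4 raised. All 4 tested prostanoid receptor genes had a lower mean in deleted cells (median -0.98), 1 of them, Ptgir, 2-fold without overlap, and 0 with values below log2 4 raised to 4. These were Ptger2 (-0.97, SE 0.35) and Ptger4 (-0.98, SE 0.31, and -0.40 on its other probe set), the prostaglandin E2 receptors that raise cyclic AMP, the prostacyclin receptor gene Ptgir (-1.20, or -0.68 with values below 4 raised, since it passed the filter through the wild-type group alone) and Tbxa2r (-0.01). The cannabinoid receptor gene Cnr2 was the single tested gene of the other lipid and metabolite receptors, and it read log2 3.70 and 3.33 in deleted cells and 5.23 and 4.34 in wild-type cells, a difference of -1.27 that was -0.79 with values below 4 raised. None of the 7 measured purine receptor genes was tested, and neither was Gpr4, a further proton-sensing receptor gene.

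Downstream of the receptors, G protein subunits showed differences that varied between probe sets. Of 6 tested alpha subunit genes 4 had a higher mean in deleted cells (median 0.31), and 1 was 2-fold higher and 1 2-fold lower without overlap, with Gna13 higher by 1.43 (SE 0.34) and its 6 tested probe sets between 0.30 and 2.69. Gnas, the stimulatory subunit that GPR65 uses, was higher by 0.64 (SE 0.24, adjusted p = 0.522 in limma). Gnai3 differed by 0.49 (SE 0.64) and by -0.046 on its other probe set, and Gnaq was lower by 1.66 (SE 0.38) on a probe set whose 3 companions reached up to 0.63. Of 6 tested beta and gamma subunit genes 3 had a higher mean and 1, Gng12, was 2-fold lower without overlap (median -0.24), or 0 with values below log2 4 raised to 4. Gng2 was higher (0.88, SE 0.34), while Gng12 (-1.35, or -0.75 with values below 4 raised, since its mean was below log2 4 in deleted cells and it passed the filter through the wild-type group alone) and Gnb1 (-0.83, SE 0.28, but 0.96 on its other probe set) were lower. Gnb4 differed by -0.75 (SE 0.55) and by -0.11 on its other probe set.

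Among the cyclic AMP genes, 5 of 8 tested had a higher mean in deleted cells (median 0.24), and 2 were 2-fold higher and 1 2-fold lower without overlap. Crem, a cyclic AMP-responsive transcription factor gene, read log2 4.967 and 4.005 in deleted cells, compared with 7.11 and 7.19 in wild-type cells. Its difference was -2.66 (SE 0.45, adjusted p = 0.2 in limma) and -1.46 on its other probe set. Prkacb, a catalytic subunit of protein kinase A, read 10.62 and 11.08 in deleted cells, compared with 8.70 and 9.14 in wild-type cells, a difference of 1.93 (SE 0.33, adjusted p = 0.205 in limma). Creb1 was higher by 1.49 (SE 0.36), although its 4 tested probe sets ran from -0.44 to 1.49, and Prkar2a differed by 0.55 (SE 0.50). All 4 tested receptor kinase and arrestin genes had a higher mean (median 0.49), from Grk6 at 0.40 and Grk3 at 0.41 to Arrb1 at 0.57 and Arrb2 at 0.83 (SE 0.40). None was 2-fold on these probe sets, but the other tested probe sets of Arrb2 and Grk6 were at 1.38 and 1.03.

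**Figure D4:**
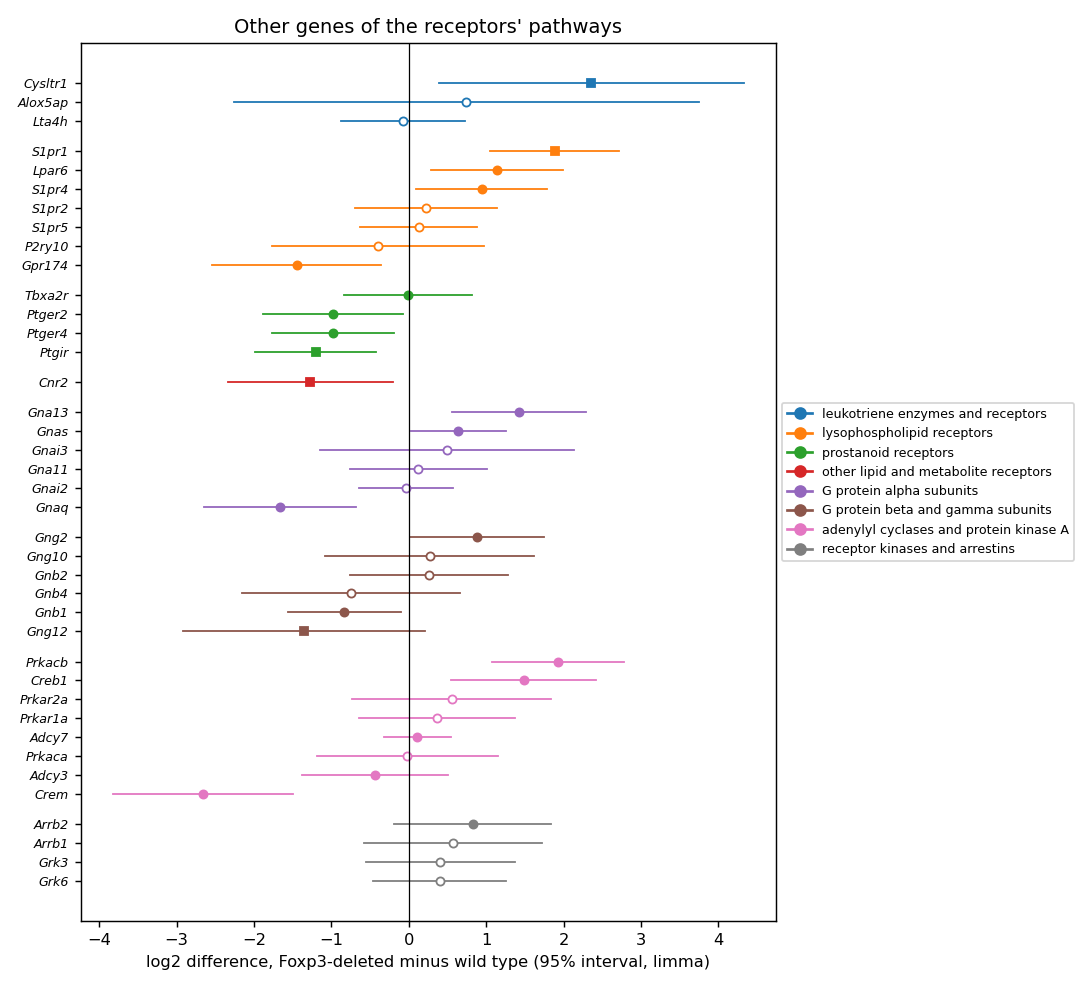
Log2 difference, Foxp3-deleted minus wild type, with its 95% interval from limma, for the tested genes of the lists around the receptors (1 probe set per gene, coloured by list). Filled points mark genes whose groups do not overlap, and squares mark genes with a group mean below log2 4, whose differences depend on the floor. Crem is lowest at -2.66, and Cysltr1, a square, is highest at 2.36 (1.27 with values below 4 raised).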

How the data were processed

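RNA of 4 samples was measured on single-colour oligonucleotide arrays, 1 per sample. Total RNA came from a Qiagen RNeasy extraction and was amplified and biotin-labelled with Ambion Message Amp II, per the labels. The deposited intensities are on a linear scale. According to the submitters' processing notes the authors made them with GCRMA 1.1.3, which pulls dim probe sets towards a floor. Its further settings are not given in the sources.

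Log2 intensities without a pseudocount were compared per probe set. The 64 control probe sets were left out, as were those with a mean log2 intensity under 4. Symbols come from the platform annotation. limma 3.58.1 in R 4.3.3 (lmFit, eBayes with an intensity trend, two-sided) left 2 residual degrees of freedom beside 2.98 from the prior, with Benjamini-Hochberg adjustment over all 16281 probe sets and a threshold of 0.05. On simulated data the check was that estimated differences came back near the added ones. It set no condition on which probe sets were called. Tables and plots used Python 3.11.15, pandas 2.3.3 and matplotlib 3.10.9.

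Members and lists were chosen with earlier results of these data known. Genes named are all members, Foxp3, ligand enzymes and up to 4 genes of largest difference per list. Also named are the 3 genes nearest in pattern to the member probe set with the largest rise and to the one with the largest fall. Marker genes were named after their values were seen. Alternatives covered the filter, the floor, a pseudocount, the normalization, the trend, the probe set choice, a replicate block and each array left out.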

Additional observations from a re-analysis of the deposited data

How the results depend on the processing

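No member probe set passed the threshold under any of the 13 other settings tried, and of 149 values of tested members recomputed under them 140 kept their sign. The 9 that turned came from leaving out a single array. Changing the filter, the trend, the replicate block or the probe set choice leaves the difference itself the same, so those values could not turn. The count of kept signs therefore overstates how stable the directions were. With each array left out, the 2 Gpr183 probe sets ranged from -0.42 to 1.26 and from -0.38 to 1.21, Gpr65 from -0.65 to 0.46, Gpr34 from -2.20 to 0.14, Gpr15 from -0.88 to 0.11, and the 2 Gpr146 probe sets from -0.17 to 0.42 and from -0.29 to 1.19. Over all settings the adjusted p in limma of the second Gpr83 probe set ran from 0.0583 to 0.778. Between 3 and 6 member probe sets were 2-fold without overlap, against 4 as reported. Over all probe sets, 20 passed with the stricter filter (mean log2 of at least 6), where fewer were tested, and 0 otherwise. The count of 2-fold probe sets without overlap was 1831, and it was 970 with the stricter filter, 1151 with a pseudocount of 16, 906 with 1 probe set per gene, and 2019 to 3672 with an array left out, where a lone array overlaps less easily. Deviations of same-numbered arrays correlated at -0.24, so the numbers were not taken to pair the samples. With the replicate block 0 probe sets passed (1092 at an unadjusted p under 0.05), and with the crossed pairing, added after seeing the data, 0 passed (2152 unadjusted).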
